A study of Mus musculus with 6 samples.

Results

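The endoplasmic reticulum (ER) folding, translocation and unfolded protein response genes were compared between regulatory T cells (Treg) with and without a deletion of the histone acetyltransferase p300. The members were 43 genes chosen by symbol, of 12393 genes that a single-symbol probe set of the array measured, and a probe set was named for 42 of the 43. No probe set carried Sec61g as its only symbol, so that gene is not analysed here. By genotype the deleted group was fl-p300/Foxp3cre and the control group was Foxp3cre, so that both carried the Cre recombinase driven from Foxp3, and the titles call the controls WT. All were C57Bl/6 mice, whose age the labels do not give, and each group held 3 samples of CD4+CD25+ cells separated with magnets, with 1 array per sample. The title of the study concerns the inhibition of p300 in Foxp3+ Treg and tumour immunity. The labels do not say whether each sample came from a separate animal, so the spread between samples may be partly technical.

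Proteins that will be secreted or placed in membranes enter the ER through the Sec61 channel, are trimmed by signal peptidase, receive sugars from the oligosaccharyltransferase and are folded by chaperones and disulfide isomerases. When unfolded protein accumulates, the sensors PERK (Eif2ak3), IRE1 (Ern1) and ATF6 start the unfolded protein response. PERK signals through the transcription factor ATF4 to Ddit3, Trib3 and Asns, whereas IRE1, through splicing of Xbp1 mRNA, and ATF6 induce the folding and degradation machinery. Cells that secrete antibody are known for a much expanded ER.

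Because the Cre is driven from Foxp3, the deletion is directed to cells that express Foxp3. Below, array values are on the log2 scale and "after deletion" stands for the 3 p300-deleted arrays, in the order of replicates 1, 2 and 3. Markers of T cells were high in all arrays, with means over the 9 tested of 11.09, 11.16 and 11.07 after deletion and of 11.00, 10.92 and 10.79 in controls. Foxp3, which defines Treg, read 2.57, 3.04 and 3.15 after deletion against 9.63, 9.35 and 9.39 in controls. Its single probe set was thus little above the bacterial control probe sets (medians of 2.20 to 2.35 in the same arrays) in every p300-deleted array, which goes against the label of these cells as Treg for this probe set. The 9 tested Treg markers had a median difference of 0.25, with Foxp3 lower and Izumo1r higher at the adjusted threshold used below. Differences were positive for 6 of the 9 and negative for 3. In 4 (Izumo1r, Gpr83, Ctla4 and Il2ra) every p300-deleted array was above every control, against 10.5% of all tested genes. The labels do not give the structure of the Foxp3 allele or the position of its probes. What the low Foxp3 value reflects was not tested. The annotation names no probe set for the deleted gene, which is not analysed here. In whole-sample arrays a smaller number of cells of one type and less RNA per cell cannot be told apart. As a measure of RNA quality, the Gapdh control probe sets at the 3′ end exceeded those at the 5′ end by 0.09, 0.14 and 0.06 after deletion and 0.23, 0.59 and 0.21 in controls. Every control was above every p300-deleted array, so a fit with this value as a covariate cannot tell it apart from the deletion. Differences from that fit are given below as a description.

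Promoters of many folding genes are known to carry elements through which the response acts, and matches to these are shown first. The members were chosen as genes of this response, so the matches describe the windows and do not test the choice. RefSeq promoter windows (build GRCm38.p6, from 250 bases before to 50 bases after the annotated start) were found for 36 members. Both strands were searched for 4 motifs. These were the ER stress response element (ERSE, the letters CCAAT and CCACG with 9 bases of any kind between them), ERSE-II (ATTGG and CCACG with 1 base between them), the core of the unfolded protein response element (UPRE, TGACGTG) and the C/EBP-ATF response element (CARE, TGATGNAA). ERSE and ERSE-II share the letters CCACG, and no matches overlapped in the members. The ERSE was found in 7 of the 36 members, against 0.137% of all 27025 genes with a window (0.119% of all 32851 windows). It lay in 6 of the 8 chaperone and co-chaperone genes with a window and in 1 of the 5 isomerase genes, and it was found in none of the 4 stress factors and neither of the sensors with a window. The ERSE-II was found in Herpud1 alone among the members (0.0444% of all genes and 0.0365% of windows), and the UPRE core in Hspa5 and Srpr (2.22% of genes and 2.01% of windows). The CARE was found in Trib3, Asns and Herpud1, against 4.51% of all genes and 3.97% of windows. A match is a description of the letters in these windows and not evidence of binding.

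The 8 ERSE matches are printed in the orientation of the motif, with the fixed letters in capitals. They lay within the 250 bases before the start, with the first base between positions -212 and -65. The first base is counted on the strand of the gene, as the base of the match farthest from the start. The matches of Calr and Creld2 and the Hsp90b1 match at -107 lie on the strand opposite to the gene. For these the position given is that of the last printed letter.
Hspa5 (chr2:34772025-34772043, first base at -65): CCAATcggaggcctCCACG
Hsp90b1 (chr10:86705638-86705656, first base at -212): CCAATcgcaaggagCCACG
Hsp90b1 (chr10:86705533-86705551, first base at -107): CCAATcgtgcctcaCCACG
Dnajc3 (chr14:118937827-118937845, first base at -105): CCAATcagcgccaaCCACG
Calr (chr8:84847075-84847093, first base at -162): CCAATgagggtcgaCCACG
Canx (chr11:50325800-50325818, first base at -145): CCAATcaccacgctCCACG
Creld2 (chr15:88819520-88819538, first base at -126): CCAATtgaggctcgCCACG
Pdia6 (chr12:17266491-17266509, first base at -98): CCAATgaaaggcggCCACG

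Windows of 4 members are printed 5′ to 3′ on the strand of the gene, with motif matches in capitals. They are Hspa5 (chr2:34771840-34772139, plus strand; UPRE core, then ERSE), Canx (chr11:50325624-50325923, minus strand; ERSE), Herpud1 (chr8:94386179-94386478, plus strand; CARE, then ERSE-II) and Asns (chr6:7693160-7693459, minus strand; CARE). Hspa5 and Canx are shown as a soluble and a membrane-bound chaperone with the same element, and Herpud1 and Asns as a degradation gene and a stress factor with the CARE.
Hspa5: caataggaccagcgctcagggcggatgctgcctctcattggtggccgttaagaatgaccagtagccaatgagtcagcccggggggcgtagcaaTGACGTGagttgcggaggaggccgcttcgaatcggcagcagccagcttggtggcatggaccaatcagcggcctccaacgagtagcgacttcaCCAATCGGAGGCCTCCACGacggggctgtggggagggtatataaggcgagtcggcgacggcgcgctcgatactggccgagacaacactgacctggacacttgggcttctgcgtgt
Canx: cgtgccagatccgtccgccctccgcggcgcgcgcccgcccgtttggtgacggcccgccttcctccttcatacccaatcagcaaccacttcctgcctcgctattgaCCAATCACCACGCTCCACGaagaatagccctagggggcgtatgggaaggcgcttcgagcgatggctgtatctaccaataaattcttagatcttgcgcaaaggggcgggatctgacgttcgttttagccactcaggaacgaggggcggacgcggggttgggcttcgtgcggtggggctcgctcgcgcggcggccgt
Herpud1: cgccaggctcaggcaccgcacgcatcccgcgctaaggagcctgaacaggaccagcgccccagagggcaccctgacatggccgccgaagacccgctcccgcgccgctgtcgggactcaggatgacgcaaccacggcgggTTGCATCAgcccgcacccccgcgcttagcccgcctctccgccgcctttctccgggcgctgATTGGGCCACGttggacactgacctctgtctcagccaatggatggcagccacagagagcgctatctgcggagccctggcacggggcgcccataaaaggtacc
Asns: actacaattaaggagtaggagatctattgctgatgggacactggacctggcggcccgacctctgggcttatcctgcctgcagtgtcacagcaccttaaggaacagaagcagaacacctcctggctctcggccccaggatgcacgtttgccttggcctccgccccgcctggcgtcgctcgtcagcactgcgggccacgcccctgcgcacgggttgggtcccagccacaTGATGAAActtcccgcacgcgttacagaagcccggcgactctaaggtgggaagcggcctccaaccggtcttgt

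**Figure D1:**
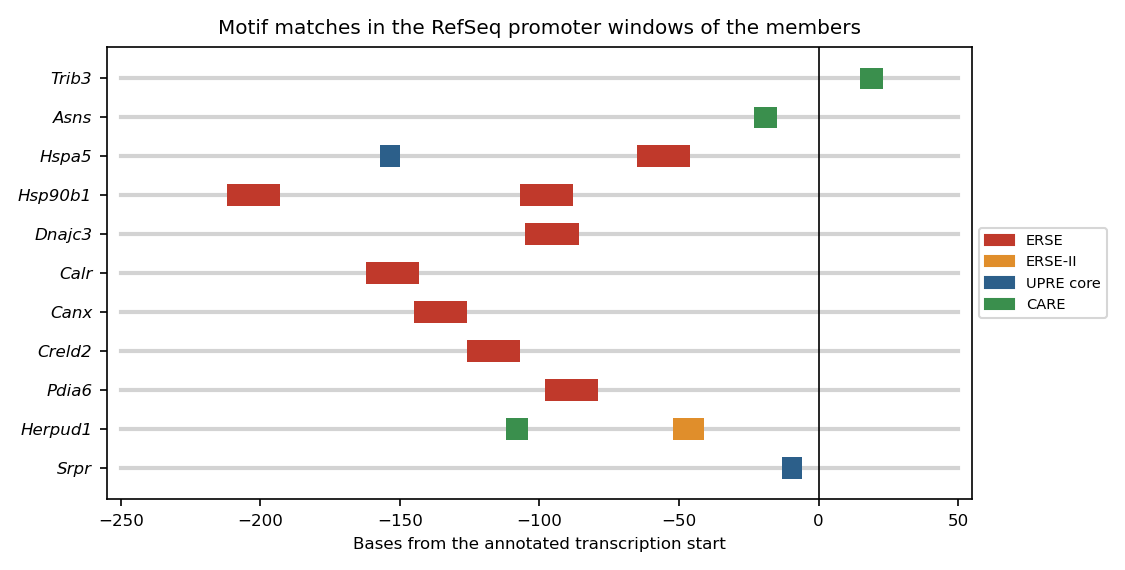
Positions of motif matches (coloured bars) in the promoter windows of the 11 members with a match, in bases from the annotated transcription start. ERSE matches (red) lie in 6 chaperone or co-chaperone genes and in Pdia6, and CARE matches (green) in Trib3, Asns and Herpud1.

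All 42 measured members passed the filter on dim genes and were tested in a limma fit of 8675 genes. Values below are RMA values on the log2 scale, differences are p300-deleted minus control, and SE is the standard error of the fit. No member passed an adjusted p under 0.05 in either direction, where 1.72% of all tested genes did (0.991% as higher and 0.726% as lower). The count of higher members was 1 with only the brighter 50% of genes in the fit, where 80 of 6197 genes were higher. It was 1 under a trended and robust variance (107 of 8675 genes higher). It was 8 under array weights (465 of 8675) and 4 without control 3 (139 of 8675). Without adjustment, at p under 0.05, 12 of the 42 members were higher (28.6%) and 0 were lower, against 8.21% and 9.89% of all tested genes. For 13 members every p300-deleted array was above every control, and for 1 member every one was below, where the shares of all tested genes were 10.5% and 13.2%. The median difference of the members was 0.16, with 31 of 42 positive, against a median of -0.03 and 45% positive over all tested genes. The members were chosen with earlier results of these data known, so these shares are a description and not a test of the list.

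Within the list the differences were unevenly distributed. The 35 measured genes of the secretory machinery had a median difference of 0.23 and held all 12 members with an unadjusted p under 0.05. The 4 stress factors had a median of 0.06 and the 3 sensors a median of -0.05, with none below that p in either role. These 2 roles were also dimmer, with median levels of 6.81 and 6.52 against 9.70 for the machinery. The part of signal level in the size of the differences was not tested. Among the machinery, the isomerases had the highest median (0.80, 5 genes), followed by the chaperones (0.29, 10 genes) and the degradation genes (0.25, 5 genes). Signal peptidase (0.06, 3 genes), the oligosaccharyltransferase (-0.01, 4 genes) and the translocon and targeting genes (-0.09, 8 genes) had medians closer to that of all genes (-0.03). The difference between machinery and stress factors was not tested, because no test of a score over chosen members applies. By array, the machinery averaged 0.22, 0.07 and 0.03 above its 6-array mean after deletion and was -0.14, -0.12 and -0.07 from it in controls, so the arrays were apart. The stress factors averaged 0.01, -0.05 and 0.10 after deletion and -0.05, 0.03 and -0.04 in controls, and these arrays overlapped. Without p300-deleted 1 the machinery median was 0.11 and 6 members were higher at the unadjusted p. Without control 1 these were 0.16 and 8 members. At the adjusted threshold these 2 fits called 20 and 4 genes of the whole table as higher, against 86 in the reported fit. The shares of all genes at the unadjusted p are not given for them, so the lower counts cannot be read as particular to the members.

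**Figure D2:**
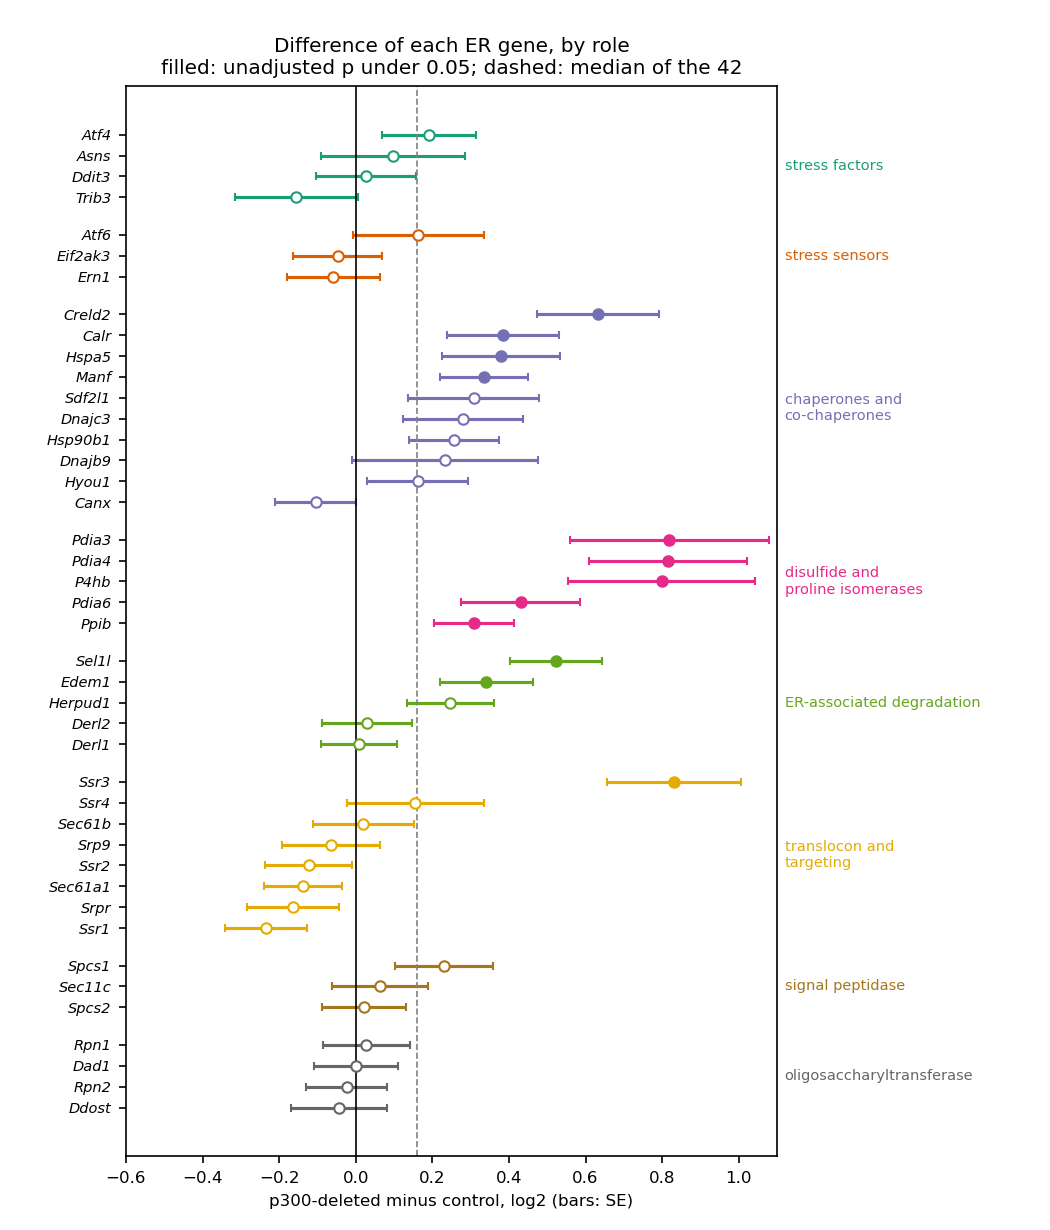
Difference of each of the 42 measured members (points, log2, p300-deleted minus control) with its SE (bars), grouped by role. Filled points have an unadjusted p under 0.05, and all 12 of them lie in the chaperone, isomerase, degradation and translocon groups. The dashed line is the median of 0.16.

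For the 4 stress factors the arrays of the groups overlapped. Ddit3 encodes CHOP, a transcription factor of prolonged ER stress. Ddit3 read 7.94, 7.83 and 7.81 after deletion against 7.88, 8.03 and 7.59 in controls, a difference of 0.03 (SE 0.13, adjusted p = 0.942), and the p300-deleted arrays lay inside the range of the controls. Atf4, the transcription factor translated when PERK or a related kinase is active, read 10.88, 10.84 and 10.52 after deletion against 10.63, 10.53 and 10.50 in controls. Atf4 thus had 0.19 (SE 0.12, adjusted p = 0.458), with p300-deleted 3 below control 1 and control 2, and a second, dimmer probe set was at -0.02. Without p300-deleted 1 the Atf4 difference was 0.13 and without p300-deleted 3 it was 0.30. ATF4 is controlled largely at translation, which these arrays do not measure.

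Trib3, a pseudokinase induced by ATF4 and CHOP, read 4.61, 4.81 and 5.22 after deletion against 5.06, 5.14 and 4.90 in controls. The highest value and the lowest were both in p300-deleted arrays, and the difference was -0.16 (SE 0.16, adjusted p = 0.664), with a second probe set at 0.17. Asns, asparagine synthetase, read 5.83, 5.54 and 6.09 after deletion against 5.47, 5.63 and 6.07 in controls, and its difference was 0.10 (SE 0.19, adjusted p = 0.836). For this gene p300-deleted 3 and control 3 were the highest arrays, so the groups overlapped.

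The sensors gave overlapping values as well. Eif2ak3 read 8.11, 8.06 and 7.92 after deletion against 8.24, 7.95 and 8.04 in controls (difference -0.05, SE 0.12, adjusted p = 0.874). Ern1 read 5.10, 4.73 and 4.89 after deletion against 5.02, 4.94 and 4.93 in controls (difference -0.06, SE 0.12, adjusted p = 0.845). Atf6 read 6.84, 6.29 and 6.67 after deletion against 6.64, 6.18 and 6.49 in controls (difference 0.16, SE 0.17, adjusted p = 0.667). In each of these genes the arrays of the groups were interleaved. The sensors are switched on by changes of their proteins, so mRNA levels do not report their activity.

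All 5 disulfide and proline isomerases had positive values at an unadjusted p under 0.05 and arrays that did not overlap, and adjusted p lay between 0.0912 and 0.205. Of all tested genes 8.21% were higher at this unadjusted p, and 10.5% had every p300-deleted array above every control. Pdia4 (ERp72) read 9.09, 8.70 and 8.85 after deletion against 8.01, 7.67 and 8.51 in controls, and its means were 8.88 ± 0.19 and 8.06 ± 0.42 (SD, n = 3 each). These means were 0.82 apart (SE 0.21, adjusted p = 0.0912), and its lowest p300-deleted array was above its highest control. Pdia3 (ERp57), which acts on glycoproteins held by calnexin and calreticulin, read 11.14, 10.88 and 10.72 after deletion against 10.07, 9.52 and 10.68 in controls. The deletion arrays exceeded the controls by 0.82 on average (SE 0.26, adjusted p = 0.158), while control 3 and p300-deleted 3 lay close together. P4hb, the protein disulfide isomerase PDI, read 10.35, 10.16 and 9.70 after deletion against 9.40, 8.75 and 9.66 in controls, with a difference of 0.80 (SE 0.24, adjusted p = 0.144). For this gene too control 3 and p300-deleted 3 nearly met and control 2 stood lowest.

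Pdia6, another isomerase of this family, read 10.11, 9.68 and 9.56 after deletion against 9.33, 9.22 and 9.51 in controls, a difference of 0.43 (SE 0.16, adjusted p = 0.205). Ppib, the proline isomerase cyclophilin B, read 11.57, 11.61 and 11.46 after deletion against 11.14, 11.33 and 11.25 in controls, a difference of 0.31 (SE 0.10, adjusted p = 0.178). A second bright probe set of Ppib was at 0.01, so the probe sets of this gene disagreed. Control 2, the array with the largest Gapdh 3′ minus 5′ difference (0.59), was the lowest of the 6 arrays for P4hb, Pdia3, Pdia4 and Pdia6. Without control 2 the differences of P4hb, Pdia3, Pdia4, Pdia6 and Ppib were 0.54, 0.53, 0.62, 0.36 and 0.35. Without p300-deleted 1 that of Pdia6 was 0.27. Over all 12 members with an unadjusted p under 0.05, control 2 was the lowest array for 8 and p300-deleted 1 the highest for 10. Among the 712 genes of the whole table that were higher at this p, control 2 was lowest for 44.1% and p300-deleted 1 highest for 43.4%.

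Chaperones and co-chaperones were positive for 9 of 10 genes, against 45% of all tested genes. Of the 10 chaperones, 4 were higher at an unadjusted p under 0.05, against 8.21% of all tested genes. Creld2, an ER protein induced by stress, had the largest difference of this role. Creld2 read 8.44, 7.93 and 7.94 after deletion against 7.54, 7.58 and 7.30 in controls, with means of 8.10 ± 0.29 and 7.47 ± 0.15 (SD, n = 3 each) and a difference of 0.63 (SE 0.16, adjusted p = 0.0912). All 3 p300-deleted arrays lay above all controls, and p300-deleted 1 stood above the other two. Hspa5 encodes BiP, the central Hsp70 chaperone of the ER. Hspa5 read 12.28, 12.19 and 11.95 after deletion against 11.81, 11.48 and 11.99 in controls, a difference of 0.38 (SE 0.15, adjusted p = 0.243), and control 3 lay above p300-deleted 3, so the groups overlapped. Without control 2 the difference of Hspa5 was 0.24. Its second probe set was at 0.49. With the Gapdh 3′ minus 5′ value as a covariate, P4hb, Pdia3, Pdia4 and Hspa5 were at 0.34, 0.27, 0.40 and 0.13. With the 18S control level as a covariate they were at 0.56, 0.50, 0.62 and 0.24. Other members did not all shrink. Creld2 and Edem1, at 0.63 and 0.34 in the reported fit, were at 0.73 and 0.33 with the Gapdh covariate. With the 18S covariate they were at 0.81 and 0.47. Calr was at 0.24 with the Gapdh covariate and 0.37 with the 18S covariate.

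Calreticulin, encoded by Calr and a lectin chaperone of new glycoproteins, read 11.77, 11.39 and 11.28 after deletion against 11.15, 10.94 and 11.20 in controls. Calr thus had 0.38 (SE 0.15, adjusted p = 0.218) with no overlap, and all 3 probe sets of Calr lay between 0.38 and 0.39. Without p300-deleted 1 it was 0.24. Manf, a small ER protein that can be secreted, read 9.77, 9.67 and 9.44 after deletion against 9.28, 9.31 and 9.29 in controls, a difference of 0.33 (SE 0.12, adjusted p = 0.184). The controls of Manf lay close together and below every p300-deleted array.

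None of the other chaperones had an unadjusted p under 0.05. Hsp90b1, the ER form of Hsp90 (GRP94), was at 0.26, and Sdf2l1, a partner of BiP complexes, at 0.31. The BiP co-chaperones Dnajc3 and Dnajb9 were at 0.28 and 0.23, and Hyou1, a nucleotide exchange factor for BiP, at 0.16. Adjusted p for these 5 genes lay between 0.297 and 0.665. The arrays of Dnajb9 spread widely within the p300-deleted group (9.83, 9.58 and 8.75) and little among the controls (9.15, 9.12 and 9.20).

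Canx, the membrane-bound lectin chaperone calnexin and partner of calreticulin, was the exception among the chaperones. It read 10.11, 9.92 and 9.97 after deletion against 10.09, 10.03 and 10.20 in controls, a difference of -0.10 (SE 0.11, adjusted p = 0.659), with overlapping groups. Other probe sets of Canx were at 0.29 and -0.0028, so its sign was not settled, whereas Calr was positive in each of its probe sets. Among the 7 members with an ERSE match the median difference was 0.38, with a range from -0.10 (Canx) to 0.63 (Creld2). The 3 largest differences of all members, those of Ssr3, Pdia3 and Pdia4, belonged to genes with no match of the 4 motifs in their windows.

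**Figure D3:**
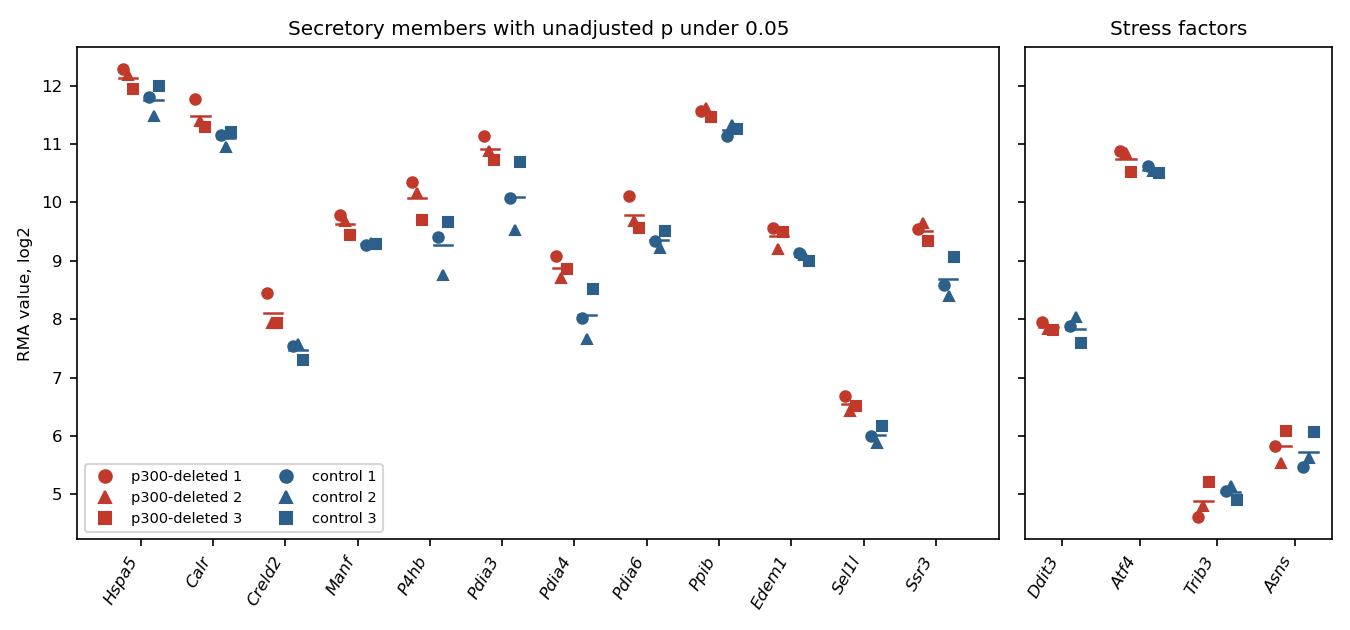
RMA values (log2) of each array for the 12 members with an unadjusted p under 0.05 and for the 4 stress factors. Red marks are p300-deleted, blue marks are controls, shapes give the replicate number and short lines the group means. The groups are apart in all of the 12 except Hspa5, and interleaved in the stress factors.

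In ER-associated degradation, which returns misfolded proteins to the cytosol, all 5 genes had positive values and 2 had an unadjusted p under 0.05. Over all tested genes 45% were positive and 8.21% were higher at this p. Sel1l, the adaptor of the Hrd1 ubiquitin ligase, read 6.68, 6.43 and 6.51 after deletion against 6.00, 5.87 and 6.17 in controls, with means of 6.54 ± 0.13 and 6.02 ± 0.15 (SD, n = 3 each). These means were 0.52 apart (SE 0.12, adjusted p = 0.0757), and the groups did not overlap. Its 4 probe sets above the dim limit were all positive, from 0.28 to 1.25, and the largest difference came from one in which control 2 read 3.31 against 4.33 and 4.46 in the other controls. Edem1, which recognises trimmed glycoproteins for disposal, read 9.56, 9.21 and 9.49 after deletion against 9.14, 9.11 and 8.996 in controls, a difference of 0.34 (SE 0.12, adjusted p = 0.198). A second bright probe set of Edem1 was at -0.02. Herpud1, a stress-induced organiser of the degradation complex, read 9.80, 9.75 and 9.92 after deletion against 9.63, 9.68 and 9.41 in controls, without overlap (difference 0.25, SE 0.11, adjusted p = 0.299), and a second probe set was at 0.38. The derlins Derl1 and Derl2, membrane proteins of the same route, were at 0.01 and 0.03. Derl1 read 10.19, 10.15 and 10.09 after deletion against 10.06, 10.17 and 10.18 in controls, with interleaved arrays.

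Values differed widely among the translocation genes, of which 3 of 8 were positive (37.5%, against 45% of all tested genes). At an unadjusted p under 0.05, 1 of the 8 was higher (12.5%, against 8.21% of all tested genes). Ssr3, the gamma subunit of the translocon-associated protein complex (TRAP), had the largest difference of all members. Ssr3 read 9.55, 9.64 and 9.34 after deletion against 8.58, 8.40 and 9.06 in controls, with means of 9.51 ± 0.15 and 8.68 ± 0.34 (SD, n = 3 each). The groups were 0.83 apart (SE 0.17, adjusted p = 0.0567), without overlap, and the value rested on 1 probe set. Ssr3 passed the adjusted threshold with only the brighter 50% of genes in the fit, under a trended and robust variance, under array weights and without control 3, at values of 0.83, 0.83, 0.91 and 1.02. The other subunits of the same complex differed from it in value. Ssr1 (alpha) read 9.38, 9.33 and 9.55 after deletion against 9.63, 9.61 and 9.74 in controls, a difference of -0.24 (SE 0.11, adjusted p = 0.294), and was the only member whose p300-deleted arrays all lay below the controls. A second probe set of Ssr1 was at 0.44, however, so the probe sets of this gene had opposite signs. Ssr2 (beta) was at -0.12 and Ssr4 (delta) at 0.16. The differences between subunits were not tested.

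The channel subunits Sec61a1 and Sec61b were at -0.14 and 0.02. Srpr, a subunit of the receptor of the signal recognition particle, was at -0.16, and Srp9, a subunit of the particle itself, at -0.07. Adjusted p for these 4 genes lay between 0.525 and 0.958. The signal peptidase genes Spcs1, Sec11c and Spcs2 were at 0.23, 0.06 and 0.02, and Spcs1 read 10.68, 10.80 and 10.79 after deletion against 10.40, 10.77 and 10.39 in controls. Control 2 overlapped the p300-deleted arrays of Spcs1. Spcs2 read 10.54, 10.39 and 10.60 after deletion against 10.51, 10.58 and 10.38 in controls, with interleaved arrays. The oligosaccharyltransferase genes were closest to 0. Rpn1 was at 0.03, Dad1 at 0.00076, Rpn2 at -0.02 and Ddost at -0.04, with adjusted p between 0.895 and 0.997. Rpn1 read 10.18, 10.01 and 9.98 after deletion against 9.97, 9.94 and 10.17 in controls, with interleaved arrays, and its 5 probe sets lay between -0.03 and 0.08. Ddost read 10.51, 10.24 and 10.44 after deletion against 10.42, 10.61 and 10.29 in controls, also interleaved.

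Several probe sets above the dim limit were named for 23 of the 42 members. In 13 of these all probe sets had the same sign of difference, and in 10 the signs were mixed. The mixed genes were Atf4, Trib3, Canx, Hsp90b1, Derl1, Edem1, Dad1, Rpn1, Sec61a1 and Ssr1. When all probe sets per gene were averaged, the median of the machinery was 0.16, and the differences of Pdia4, Edem1 and Ppib were 0.39, 0.16 and 0.16. The mean for Pdia4 includes a probe set near background (a mean of 2.84 over all arrays).

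**Figure D4:**
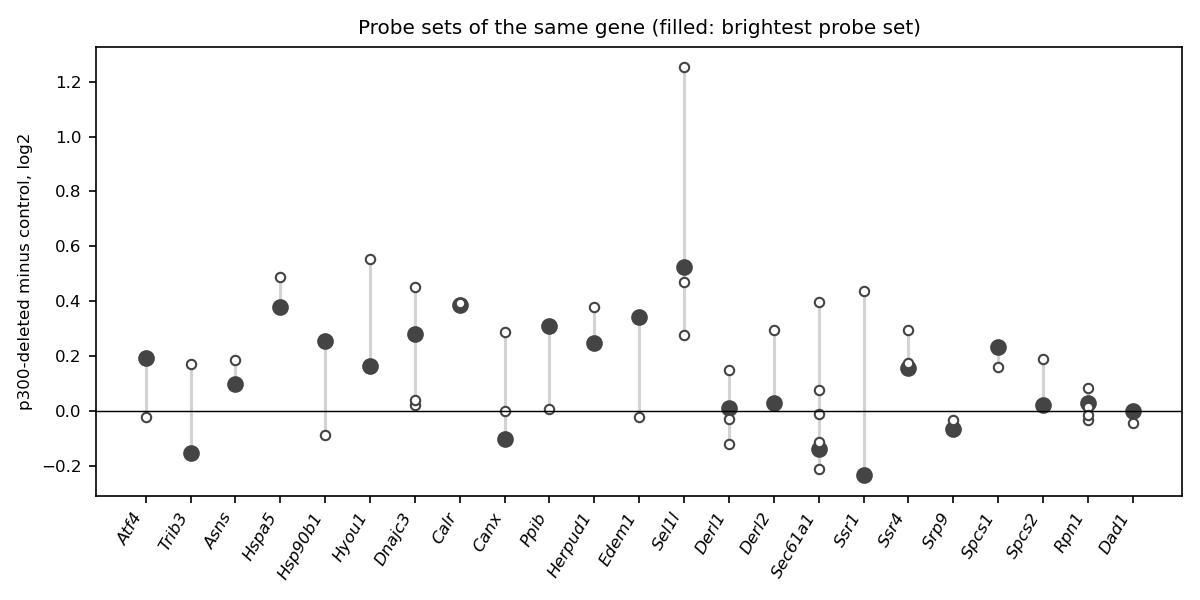
Differences (log2, p300-deleted minus control) of all probe sets above the dim limit for the 23 members with several. Filled points are the brightest probe set of each gene and open points the others. Calr, Hspa5, Herpud1 and Sel1l are positive throughout, whereas Ssr1 spans -0.24 to 0.44.

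Other genes of the pathway were taken from lists made by function. Of 34 tested further genes of ER folding and degradation, 3 rose, 0 fell and 31 did not pass, where 0.991% of all tested genes rose and 0.726% fell. The median difference of the list was 0.10. Xbp1, the transcription factor spliced by IRE1, rose by 0.73 (SE 0.14, adjusted p = 0.0479), with arrays at 11.31, 10.80 and 11.20 against 10.43, 10.27 and 10.41 in controls. Derl3, the derlin of secretory cells, rose by 1.37 (SE 0.21, adjusted p = 0.0322), and Txndc5, an ER thioredoxin-domain protein, rose by 1.29 (SE 0.22, adjusted p = 0.0393). Derl3 read 8.12, 7.25 and 7.52 after deletion against 6.22, 6.48 and 6.08 in controls, a contrast with 0.01 and 0.03 for its relatives among the members. Erp44, which retains proteins in the early secretory pathway, had 0.78 (adjusted p = 0.0567).

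Of 20 further translocation and glycosylation genes and of 23 genes of ER to Golgi transport, limma called none. Before adjustment, at p under 0.05, 3 were higher and 2 lower in the first list and 3 higher and 0 lower in the second, where 8.21% of all tested genes were higher and 9.89% lower at this p. The medians were 0.05 and 0.04. The smallest p of these lists belonged to Alg5, a glucosyltransferase of the lipid-linked sugar donor (0.52, adjusted p = 0.13), and to the small GTPase Arf4 (0.37, adjusted p = 0.17).

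Of 23 tested further genes of the integrated stress response, in which PERK or a related kinase acts through ATF4, limma called none. Their median difference was -0.08. Before adjustment, at p under 0.05, 3 were higher and 5 lower (13% and 21.7%, against 8.21% and 9.89% of all tested genes). The smallest p was that of Shmt2, the mitochondrial serine hydroxymethyltransferase, at -0.59 (SE 0.14, adjusted p = 0.0746), with 7.92, 7.70 and 8.001 against 8.54, 8.61 and 8.24 in controls. All p300-deleted arrays of Shmt2 lay below the controls. Phgdh and Mthfd2, of serine and one-carbon metabolism, followed at -0.40 and -0.50 (adjusted p = 0.0912 and 0.101). The remaining lower ones were Slc7a5 at -0.50 and Gars at -0.27 (adjusted p = 0.124 and 0.218). The 3 higher ones were Ddit4, an inhibitor of mTORC1 signalling, at 0.46, the transcription factor Atf5 at 0.33 and Slc3a2, a subunit of amino acid transporters, at 0.25, with adjusted p between 0.246 and 0.261. These genes, other than Shmt2, were chosen after their values were seen.

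Markers of plasma cells, of mast cells and basophils, of myeloid cells and of T cells had higher means in the p300-deleted arrays, and B cell markers did not. Of the 9 tested T cell markers 8 were positive, against 45% of all tested genes, and 0 passed the adjusted threshold. At an unadjusted p under 0.05, 3 of them were higher (33.3%, against 8.21% of all tested genes), and their median difference was 0.13. Of 12 listed plasma cell markers 9 were tested, of which 4 rose (Igha, Tnfrsf17, Igk and Jchain) and 0 fell, against 0.991% and 0.726% of all tested genes, with a median difference of 0.81. The mean of the 9 was 9.48 to 9.88 in p300-deleted arrays and 8.56 to 8.85 in controls, without overlap. Jchain, the joining chain of secreted antibody, read 13.05, 12.98 and 12.72 after deletion against 11.51, 12.12 and 11.97 in controls, in both groups far above the bacterial control probe sets. Tnfrsf17, the plasma cell receptor BCMA, read 6.20, 5.66 and 6.13 after deletion against 4.17, 4.48 and 3.94 in controls, and the plasma cell factor Prdm1, which T cells also express, read 7.69, 7.499 and 7.51 after deletion against 7.88, 7.26 and 7.83 in controls. Relative to their 6-array means, the plasma cell markers averaged 0.69, 0.29 and 0.49 after deletion and -0.63, -0.49 and -0.34 in controls. P300-deleted 1 was the highest array for these markers as for the chaperones (0.36, 0.08 and -0.02) and the isomerases (0.53, 0.28 and 0.14). It was also the highest for the mast cell and basophil (0.90), myeloid (1.22) and B cell markers (0.25). P300-deleted 3 was above p300-deleted 2 for the plasma cell markers and below it for the chaperones and isomerases.

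Of 9 tested mast cell and basophil markers 6 rose and 0 fell, again against 0.991% and 0.726% of all tested genes. They were the mast cell and basophil proteases Cma1, Mcpt4, Mcpt8, Tpsb2 and Cpa3 and the IgE receptor subunit Fcer1a, with differences from 1.04 to 2.53 and adjusted p from 0.0223 to 0.0486. The mean of the list was 5.70 to 6.35 in p300-deleted arrays and 4.80 to 4.95 in controls. Of 13 myeloid markers 0 passed in limma, and 7 were higher at an unadjusted p under 0.05, where 8.21% of all tested genes were. Their mean was 6.26 to 7.41 against 5.33 to 6.09, with the highest value in p300-deleted 1. The 7 tested B cell markers had a median of -0.30, with Spib lower at the adjusted threshold, and overlapping means of 6.41 to 7.23 and 7.04 to 7.22. The part of any of these cells in the differences of the ER genes was not tested.

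**Figure D5:**
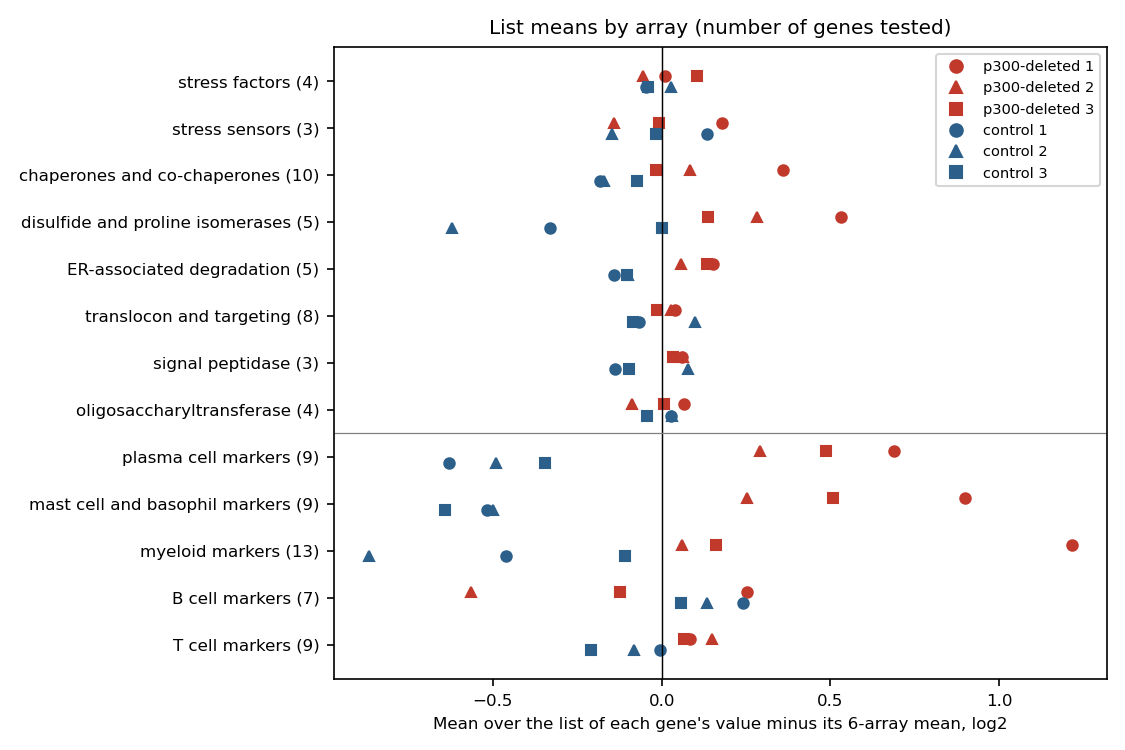
Mean of each role (above the line) and of each marker list (below it) in every array, as the difference of each gene from its own 6-array mean (log2), with the number of genes in brackets. Red marks are p300-deleted and blue marks controls. The chaperones, the isomerases, the degradation genes and the plasma cell, mast cell, myeloid and T cell markers do not overlap between groups, whereas the stress factors, sensors, translocon, signal peptidase, oligosaccharyltransferase and B cell lists do.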

How the data were processed

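Expression was deposited as log2 values of probe sets, for which the submitters' processing notes name RMA as the authors' tool (version not given in the sources used). Since RMA equalises the distribution of values across arrays, a shift of the total amount of RNA is not visible. Array medians were 5.38 to 5.46. Of 22690 probe sets, the platform annotation gave 1 symbol to 20393, several to 691 and none to 1606.

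The brightest probe set per gene (highest mean over the 6 arrays) was used, and the 30% of genes with the lowest means (up to 3.91) were left out, which kept 8675 of 12393 genes and all 42 measured members. A linear model of group was fitted in limma 3.58.1 (R 4.3.3) with moderated variances, and two-sided p-values were adjusted by Benjamini-Hochberg across the 8675 genes, with 0.05 as the threshold. The median SE was 0.126, and 3 arrays per group limit the precision. The fit was tested on simulated data.

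The members and lists were chosen with earlier results of these data known. Values of every array are given for the stress factors, the sensors, every member with an unadjusted p under 0.05 and the largest and smallest difference of each role. Outside the members, the genes of a list that passed the adjusted threshold were named, or otherwise the smallest p of a pathway list. A few further values were chosen after they were seen. These are the array values of Dnajb9 and Herpud1, the second probe sets, Erp44, Phgdh, Mthfd2, Slc7a5, Gars, Ddit4, Atf5, Slc3a2 and Prdm1. The Treg markers Gpr83, Ctla4 and Il2ra were named in the same way. Some probe sets match more than 1 transcript by their suffix (_a_at, _s_at, _x_at). Promoter windows are those of RefSeq and were matched by gene ID. The 36 members had 38 windows. For 33 of the 36 members, the start site of the first window was the start of the gene in the RefSeq table of the same assembly. The second windows of Derl2 and Rpn2 were not compared.

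Alternatives were the filter on dim genes, the mean over probe sets, a trended robust variance, array weights, median centring, a further quantile normalization, the replicate number as a block, the 18S control probe sets as a covariate, a threshold of 0.1 and leaving out each array. A covariate for the 3′ minus 5′ difference of Gapdh was added after seeing the data. The samples were not treated as paired.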

Additional observations from a re-analysis of the deposited data

How the results depend on the processing

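No member was lower at the adjusted threshold under any of the 17 alternatives. The count of higher members, 0 in the reported fit, was 1 (Ssr3) with only the brighter 50% of genes, where 80 of 6197 genes were higher. It was 1 (Ssr3) with a trended and robust variance, where 107 of 8675 genes were higher. It was 8 with array weights (465 of 8675 genes higher). At an adjusted p under 0.1 it was 4 (Creld2, Pdia4, Sel1l and Ssr3), where 197 of 8675 genes were higher. Leaving out single arrays gave 0 to 4 higher members. The 4 (Pdia3, Pdia4, Sel1l and Ssr3) were found without control 3, where 139 of 8675 genes were higher. Same-numbered arrays did not all deviate together (correlations of -0.07, 0.12 and -0.12). With deviations taken from means of 3 arrays, these values cannot decide whether the numbers pair the samples. With the replicate number as a block 0 members were called, 11 were higher at an unadjusted p under 0.05, and 56 genes of the whole table were higher and 42 lower, against 86 and 63. With the 18S covariate 6 members, and with the Gapdh covariate 8, were higher at the unadjusted p, against 12. These 2 fits called 10 and 25 genes of the whole table as higher at the adjusted threshold, against 86. The shares of all genes at the unadjusted p are not given for them, so the drop cannot be read as particular to the members. The share of all genes called ran from 0.104% (without control 1) to 11.7% (array weights), against 1.72%. Of the members, 39 were tested with the brighter 50% of genes and 41 with the mean of all probe sets.

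The machinery median of 0.23 was 0.16 with the mean of all probe sets and ran from 0.11 (without p300-deleted 1) to 0.21 when single arrays were left out. The stress factor median of 0.06 ran from 0.01 to 0.11 over 16 alternatives. All members with an unadjusted p under 0.05 kept a positive sign under every alternative, but with the Gapdh covariate P4hb, Pdia3, Pdia4 and Hspa5 were 0.34, 0.27, 0.40 and 0.13. In that fit Creld2 and Edem1 were 0.73 and 0.33, and Calr was 0.24. The Gapdh value did not overlap between the groups, so that fit cannot tell it apart from the deletion.

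Signs that turned belonged to values within the spread. With the 18S covariate Asns was -0.028, Ddost 0.10, Derl1 -0.023, Ern1 0.035 and Rpn1 -0.038. With the Gapdh covariate Asns was -0.074, Atf6 -0.12, Ddost 0.097 and Rpn1 -0.059. With array weights Atf6 was -0.022, Ddit3 -0.0089 and Spcs2 -0.013. With median centring Derl1 was -0.014 and Spcs2 -0.00082. With the mean of all probe sets Canx was 0.061 and Trib3 0.0070. Over single arrays left out, Asns ran from -0.038 to 0.27, Ddit3 from -0.096 to 0.12, Ddost from -0.12 to 0.041, Derl1 from -0.028 to 0.037, Eif2ak3 from -0.11 to 0.036, Ern1 from -0.16 to 0.031, Rpn1 from -0.034 to 0.098 and Spcs2 from -0.035 to 0.085. The causes were not tested. With 3 arrays per group and a median SE of 0.126, small differences could not be told from the spread.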
